A study of Mus musculus with 8 samples.

Results

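The 6 mixed-lineage kinase genes Map3k9, Map3k10, Map3k11, Map3k12, Map3k13 and Map3k21 were followed in RNA-seq libraries of the mouse medial prefrontal cortex (mPFC). They were chosen by name, out of 54532 genes in the count table, and the family was proposed because Map3k21 differed between the groups in earlier results of these data. Values of the group comparison are therefore given as a description for all 6 members, with no p-value. All 6 passed the filter on low counts that left 16745 genes for testing. The libraries came from adult male C57BL/6 mice, with 4 libraries in the retrieval group and 4 in the non-retrieval group. Each library was a pool of 2 to 3 mice, and tissue was taken 1 h after a conditioned place preference (CPP) test. In CPP an animal learns to prefer a compartment paired with a drug, here methamphetamine, and the test measures that memory. The labels give this same time for both groups. How the non-retrieval animals were conditioned or handled is not stated in the labels. Whether the groups differed in exposure to the apparatus as well as in retrieval therefore cannot be told.

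Mixed-lineage kinases are MAP kinase kinase kinases (MAP3Ks), enzymes at the top of a relay in which a MAP3K phosphorylates a MAP kinase kinase (MAP2K), which in turn activates a MAP kinase such as JNK or p38. MLK1 (Map3k9), MLK2 (Map3k10), MLK3 (Map3k11) and MLK4 (Map3k21) carry an SH3 domain, leucine zippers and a CRIB motif that binds the small GTPases Cdc42 and Rac. DLK (Map3k12) and LZK (Map3k13) share the kinase domain and leucine zippers but lack the SH3 domain and the CRIB motif. In neurons, DLK and LZK are best known as sensors of axon injury, and scaffold proteins of the JIP and POSH families hold the kinases and JNK together.

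The promoters of 3 members are shown because Map3k21 and Map3k13 are the members whose groups did not overlap and Map3k10 is the member with the highest level. Each run is the 250 bases before the RefSeq transcription start, 5′ to 3′ on the strand of the gene, from RefSeq on GRCm38.p6. Capitals mark every match to 5 motifs searched on both strands: the full CRE (TGACGTCA), the AP-1 site (TGANTCA), the EGR site (GCGNGGGCG), the E-box (CACGTG) and the GC box (GGGCGG). Map3k21 lies at chr8:125910200-125910449 (plus strand), Map3k13 at chr16:21891719-21891968 (plus strand) and Map3k10 at chr7:27674582-27674831 (minus strand). The Map3k13 window precedes a RefSeq start that lies inside the gene model used for counting (chromosome 16, 21794346 to 21933439), so it is not the region before the 5′ end of that model.
Map3k21: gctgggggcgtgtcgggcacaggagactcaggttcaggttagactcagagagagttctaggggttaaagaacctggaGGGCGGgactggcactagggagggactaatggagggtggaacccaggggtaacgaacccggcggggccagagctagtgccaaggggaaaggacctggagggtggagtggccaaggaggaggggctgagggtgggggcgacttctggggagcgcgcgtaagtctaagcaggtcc
Map3k13: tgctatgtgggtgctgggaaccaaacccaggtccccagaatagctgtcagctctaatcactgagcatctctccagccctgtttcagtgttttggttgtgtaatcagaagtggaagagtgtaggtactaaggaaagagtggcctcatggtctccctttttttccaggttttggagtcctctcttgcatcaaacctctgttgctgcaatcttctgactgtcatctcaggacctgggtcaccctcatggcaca
Map3k10: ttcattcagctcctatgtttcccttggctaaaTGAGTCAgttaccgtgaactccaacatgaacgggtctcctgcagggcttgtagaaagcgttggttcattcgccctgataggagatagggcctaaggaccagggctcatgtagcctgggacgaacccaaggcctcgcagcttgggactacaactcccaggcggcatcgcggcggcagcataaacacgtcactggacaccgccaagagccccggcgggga
The Map3k21 window held 1 GC box and no match to the other 4 motifs, and 63.2% of its bases were G or C. The Map3k13 window held no match and had 49.2% G or C, and the Map3k10 window held 1 AP-1 site and had 57.2% G or C. RefSeq gave 7 such windows for the 6 members, 2 of them for Map3k12. The CRE and the EGR site were in none of the 7, and the AP-1 site was in the Map3k10 window alone. Among all 32851 windows of this length, 6.75% held the AP-1 site, 32.7% the GC box, 6.02% the E-box, 4.70% the EGR site and 1.55% the CRE. A match to these letters is a description of the window and not a binding site.

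Depth and composition of the libraries bear on every value below. Total counts ran from 25013503 to 29547978 per library, and 23474 to 24671 genes had at least 1 count. Markers of cortical excitatory neurons (8 of 8 detected in every library) summed to 5807 to 6301 CPM (read counts scaled to library size) among non-retrieval libraries and 5476 to 6494 CPM among retrieval libraries, while 4 choroid plexus markers summed to 0.402 to 1.05 CPM. The 10 myelin markers summed to 3398 to 4008 CPM among non-retrieval and 4121 to 5980 CPM among retrieval libraries, so the groups did not overlap, and 6 of the 10 passed the test as higher. The 9 striatal projection neuron markers summed to 438 CPM in retrieval replicate 2 and to 251 to 314 CPM in the other 7 libraries. No defining marker of myelin or striatal neurons was at 0 in any library. In bulk tissue, fewer cells of a type and less RNA per cell cannot be told apart. Across all genes, 766 (4.57%) passed an edgeR quasi-likelihood test at a Benjamini-Hochberg adjusted p under 0.05, 615 (3.67%) higher and 151 (0.902%) lower in retrieval. The split became 747 higher and 634 lower when an offset corrected each library for GC content and gene length. Leaving out non-retrieval replicate 3 or 4 gave a total of 331 or 330, leaving out retrieval replicate 3 or 4 gave 420 or 397, and leaving out retrieval replicate 1 gave 1360.

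Compared per length of gene model, the members spanned a wide range of levels. Map3k10 stood highest at 69.9 ± 7.61 CPM per kb (SD, n = 8 libraries), followed by Map3k12 at 12.9 ± 0.35, Map3k9 at 10.8 ± 1.39, Map3k11 at 9.07 ± 1.41, Map3k13 at 4.21 ± 0.69 and Map3k21 at 0.77 ± 0.28 CPM per kb. Each member lay above the next in 8 of 8 libraries (exact two-sided paired permutation test over 8 libraries, p = 0.00781 for each of the 5 neighbouring pairs, also after Benjamini-Hochberg adjustment, the smallest p that 8 libraries allow). The pairs and their direction were taken from the mean levels of the same 8 libraries, so these p-values are no independent support for the order. They also take the length of each gene model as given. Nor do they allow for exon bases shared with other genes, which are 19.3% in Map3k12 and none in Map3k9. Map3k12 exceeded Map3k9 by only 0.27 ± 0.20 on the log2 scale of CPM per kb (SD, n = 8; 0.42 in non-retrieval and 0.12 in retrieval), and Map3k9 exceeded Map3k11 by 0.25 ± 0.17. Levels of Map3k9 and Map3k11 overlapped between libraries, whereas those of the other 4 neighbouring pairs did not. Map3k10 exceeded Map3k12 5.40-fold. Map3k13 exceeded Map3k21 3.61-fold in non-retrieval and 9.03-fold in retrieval, a description that includes the group difference used to choose the family.

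Set among 18 MAP3K genes, the mixed-lineage kinases held both the top of the order and a place near its lower end. In non-retrieval, Map3k10 ranked 1, Map3k12 ranked 2, Map3k9 ranked 4, Map3k11 ranked 6, Map3k13 ranked 9 and Map3k21 ranked 12 by CPM per kb. Map3k5, which encodes the stress kinase ASK1, stood between Map3k12 and Map3k9 at 10.4 ± 0.49 CPM per kb, and Map3k7, which encodes TAK1, stood between Map3k9 and Map3k11 at 8.41 ± 0.48 (SD, n = 4). Map3k21 stood in non-retrieval at 1.02 ± 0.15 CPM per kb, within the spread of Map3k1 at 1.00 ± 0.14 (SD, n = 4). In retrieval Map3k21 ranked 16 at 0.53 ± 0.082 CPM per kb, beside Map3k20, which encodes ZAK, at 0.55 ± 0.045 (SD, n = 4).

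**Figure D1:**
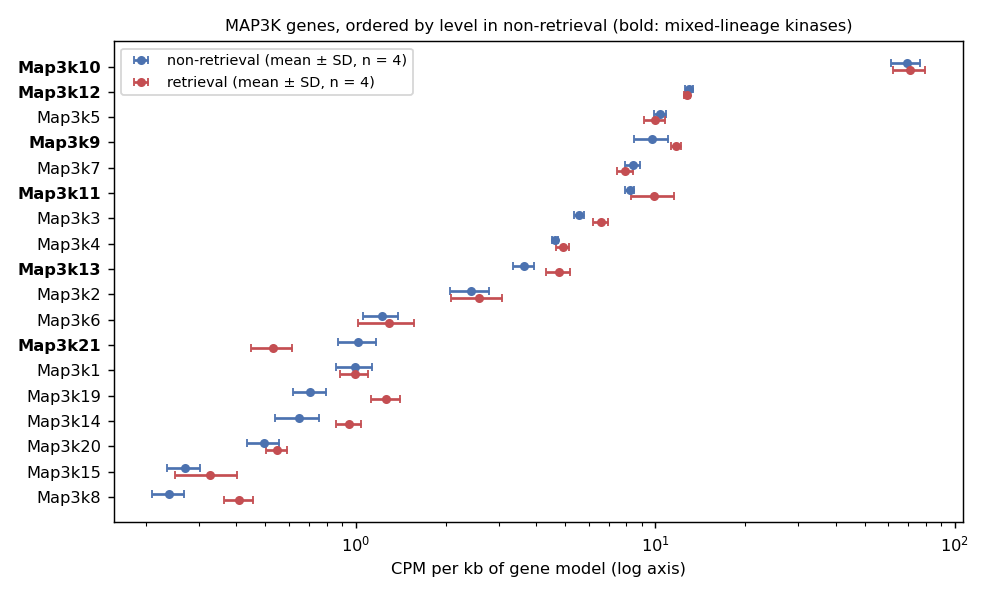
Level of 18 MAP3K genes in CPM per kb of gene model (log axis), as mean ± SD over 4 libraries of each group, ordered by the non-retrieval level with the mixed-lineage kinases in bold. Map3k10 stands alone at about 69 to 71 CPM per kb, and Map3k21 is at rank 12 in non-retrieval and rank 16 in retrieval.

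Map3k21 (ENSMUSG00000031853), the gene of MLK4, lies on chromosome 8 from 125910450 to 125947440 in the build GRCm38, with 1 annotated transcript of 10 exons. No other gene of the count table overlaps it, and none of its 50-base stretches occurs in a transcript of another gene. Its raw counts were 134, 160, 182 and 165 in non-retrieval replicates 1 to 4 and 97, 98, 63 and 81 in retrieval replicates 1 to 4. Scaled to library size, these were 4.72, 6.44, 6.49 and 5.55 CPM for non-retrieval and 3.26, 3.48, 2.41 and 2.93 CPM for retrieval. The groups did not overlap: the highest retrieval library (3.48 CPM) lay under the lowest non-retrieval library (4.72 CPM). The log2 fold change, retrieval over non-retrieval, was -0.93 (SE 0.15), a level 0.52 times that of non-retrieval. Among all tested genes, 0.34% had a lower log2 fold change. The choice of the family by this difference made such a place likely, so it is no independent support.

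The count of Map3k21 is small, and counting error makes up a part of its spread. Its coefficient of variation was 14.5% in non-retrieval and 15.4% in retrieval, against 7.90% and 10.9% from counting alone. The log2 fold change stayed between -1.02, with non-retrieval replicate 1 left out, and -0.84, with retrieval replicate 3 left out, whichever single library was removed. With the mean level of the myelin markers as a covariate it was -1.21 (SE 0.23). That level was higher in every retrieval library than in any non-retrieval library, so myelin and group cannot be fully told apart in such a fit. In the reported analysis, Map3k12 was the only other member with a negative log2 fold change.

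**Figure D2:**
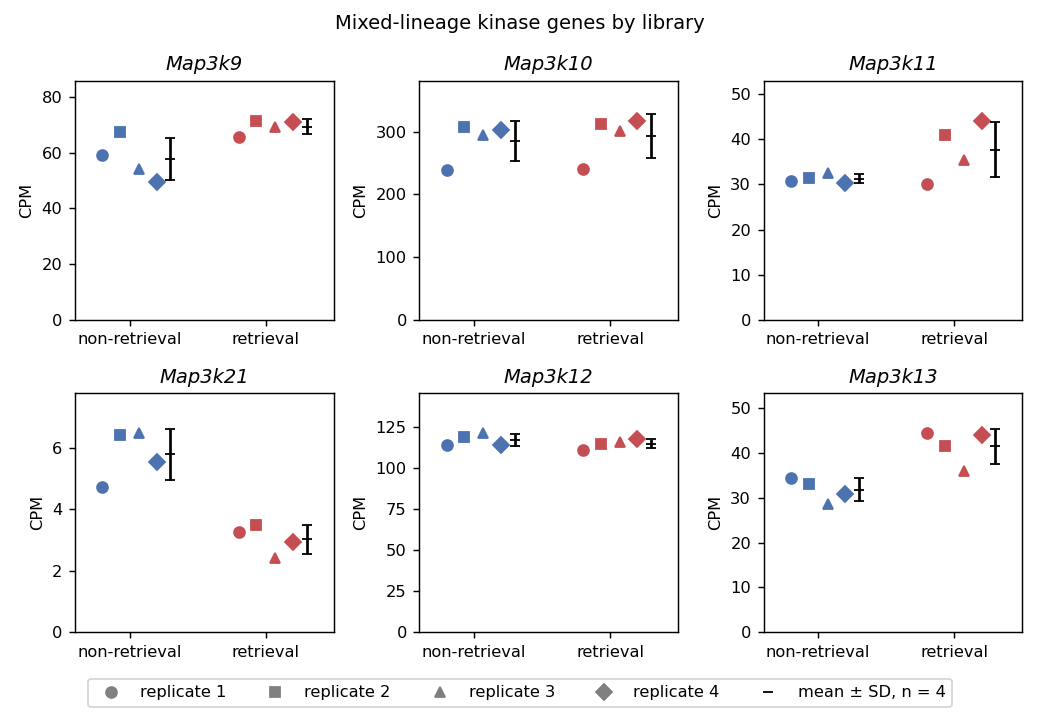
CPM of the 6 genes in each of the 8 libraries (symbol shape gives the replicate number), with the mean ± SD of 4 libraries beside each group. Map3k21 runs from 4.72 to 6.49 CPM across non-retrieval and from 2.41 to 3.48 CPM across retrieval libraries, Map3k13 is higher in every retrieval library, and Map3k10 is lowest in replicate 1 of both groups.

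As a share of the summed CPM per kb of the 6 genes, Map3k21 made up 0.97% ± 0.083 in non-retrieval and 0.49% ± 0.098 in retrieval (SD, n = 4). The share was 0.89%, 1.01%, 1.07% and 0.92% in non-retrieval replicates 1 to 4 and 0.60%, 0.52%, 0.38% and 0.43% in retrieval replicates 1 to 4. The sum itself overlapped between groups, at 105 ± 8.07 CPM per kb in non-retrieval and 111 ± 10.7 CPM per kb in retrieval (SD, n = 4). Map3k10 supplied 65.8% ± 2.84 of the sum in non-retrieval and 63.9% ± 1.95 in retrieval (SD, n = 4).

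**Figure D3:**
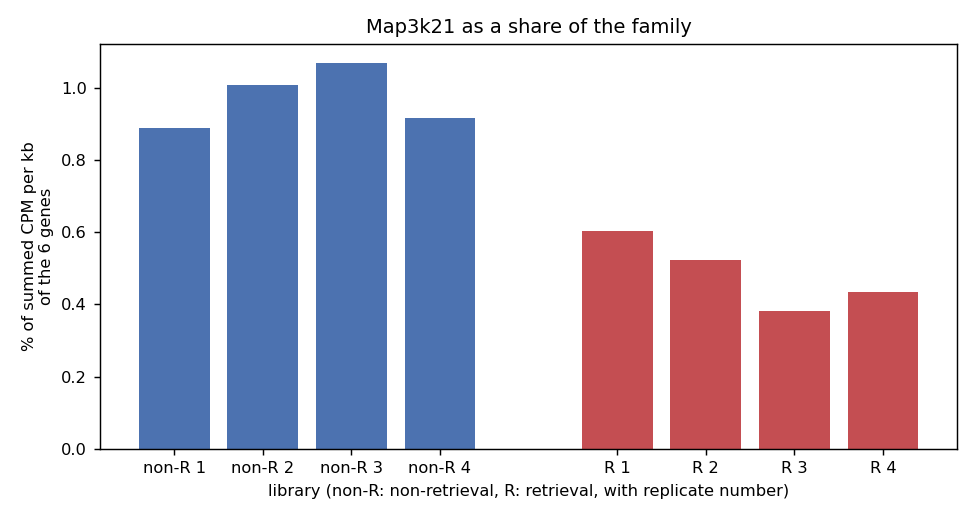
Map3k21 as a percentage of the summed CPM per kb of the 6 genes in each library (bars start at 0). Shares are 0.89% to 1.07% in the 4 non-retrieval libraries and 0.38% to 0.60% in the 4 retrieval libraries.

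Map3k9 (ENSMUSG00000042724, chromosome 12, 81721010 to 81781175), the gene of MLK1, stood at 59.3, 67.4, 54.3 and 49.7 CPM in non-retrieval replicates 1 to 4 and at 65.7, 71.5, 69.3 and 71.1 CPM in retrieval replicates 1 to 4. The groups overlapped through non-retrieval replicate 2, which lay above retrieval replicate 1. The log2 fold change was 0.27 (SE 0.081). It was 0.14 (SE 0.11) with the mean myelin level as a covariate and 0.18 (SE 0.073) with the length and GC offset. Non-retrieval libraries varied more (coefficient of variation 13.2%) than retrieval libraries (3.80%). No other gene of the table overlaps Map3k9.

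Map3k10 (ENSMUSG00000040390, chromosome 7, 27656375 to 27674598), the gene of MLK2, did not separate the groups. It stood at 239, 308, 294 and 302 CPM in non-retrieval replicates 1 to 4 and at 241, 313, 301 and 317 CPM in retrieval replicates 1 to 4 (log2 fold change 0.036, SE 0.091). With the mean myelin level as a covariate its log2 fold change was -0.16 (SE 0.12). Replicate 1 of each group was low, and the other 6 libraries lay together. The same 2 libraries had the lowest summed excitatory neuron markers, 5807 and 5476 CPM against 6002 to 6494 CPM in the others, and the lowest summed GABAergic interneuron markers, 916 and 866 CPM against 926 to 1021 CPM. By the mean log2 CPM of each list, which weights its genes equally, they were not set apart: excitatory markers stood at 7.62 and 7.66 in these 2 and at 7.55 to 7.69 in the others, and GABAergic markers at 6.50 and 6.39 against 6.43 to 6.62. The part of these markers in the level of Map3k10 was not tested. Its exons share 14.8% of their bases with Ttc9b on the opposite strand, which reached 4742 to 6347 counts, and since the strand setting of the counting is not given, reads from those bases cannot be assigned with certainty.

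Map3k11 (ENSMUSG00000004054, chromosome 19, 5689131 to 5702862), the gene of MLK3, was even across non-retrieval libraries and spread out in retrieval. It stood at 30.7, 31.4, 32.5 and 30.2 CPM in non-retrieval replicates 1 to 4 and at 30.2, 41.0, 35.5 and 44.1 CPM in retrieval replicates 1 to 4. Retrieval replicate 1 was within the non-retrieval range and the other 3 retrieval libraries were above it (log2 fold change 0.27, SE 0.098). The 2 highest libraries, retrieval replicates 2 and 4, also had the highest summed myelin markers, 5980 and 5430 CPM against 3398 to 4124 CPM in the other 6. With the mean myelin level as a covariate the log2 fold change of Map3k11 was -0.01 (SE 0.12). It was 0.19 without retrieval replicate 4 and 0.37 without retrieval replicate 1. No other gene of the table overlaps Map3k11, but 8.43% of its 50-base stretches occur in transcripts of other genes.

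**Figure D4:**
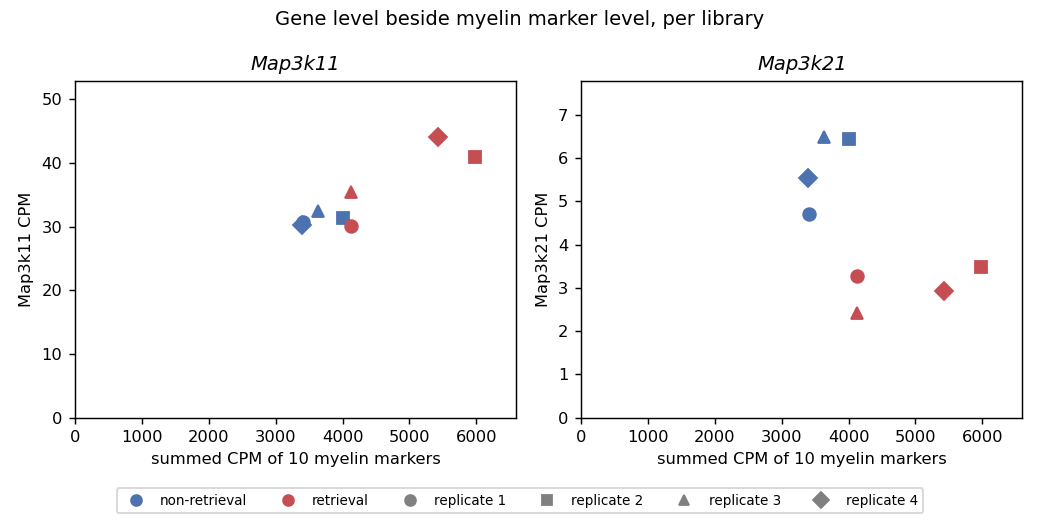
Map3k11 (left) and Map3k21 (right) in CPM against the summed CPM of 10 myelin markers, 1 point per library, coloured by group. Retrieval replicates 2 and 4 are highest in both Map3k11 (41.0 and 44.1 CPM) and the markers, and Map3k21 runs from 2.41 to 3.48 CPM in the 4 retrieval libraries. The part of the markers in either level was not tested.

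Map3k12 (ENSMUSG00000023050, chromosome 15, 102497646 to 102517064), the gene of DLK, was the steadiest member. It stood at 114, 119, 121 and 114 CPM in non-retrieval replicates 1 to 4 and at 111, 115, 116 and 117 CPM in retrieval replicates 1 to 4. The groups overlapped (log2 fold change -0.026, SE 0.057), and the coefficient of variation was 3.13% in non-retrieval and 2.35% in retrieval. Its exons share 19.3% of their bases with 2 genes on the opposite strand, Gm10337 with no counts and Pcbp2, which encodes an RNA-binding protein and reached 2495 to 3489 counts. Map3k12 itself had 2950 to 3398 counts. Since the strand setting is not given, reads from the shared bases cannot be assigned with certainty here either.

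Map3k13 (ENSMUSG00000033618, chromosome 16, 21794346 to 21933439), the gene of LZK, separated the groups. It stood at 34.5, 33.2, 28.7 and 30.8 CPM in non-retrieval replicates 1 to 4 and at 44.5, 41.7, 35.9 and 44.0 CPM in retrieval replicates 1 to 4. Every retrieval value exceeded every non-retrieval value, though retrieval replicate 3 (35.9 CPM) was close to non-retrieval replicate 1 (34.5 CPM). The log2 fold change was 0.38 (SE 0.083), a level 1.31 times that of non-retrieval, and 0.31 (SE 0.12) with the myelin level as a covariate. When any 1 library was left out it ranged from 0.34 (without non-retrieval replicate 3) to 0.45 (without retrieval replicate 3). Of its exon bases, 3.22% are shared with other genes, chiefly a long non-coding RNA on the same strand, 1300002E11Rik, which had 87 to 122 counts against 806 to 1321 for Map3k13.

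Of the 6 members, Map3k13 (higher) and Map3k21 (lower) were past the edgeR threshold and were also the 2 whose groups did not overlap, beside 4.57% of all tested genes past the threshold. Among all tested genes the groups did not overlap for 11.1%, with retrieval higher for 6.59% and lower for 4.53%. Because the choice of the family used this comparison, nothing is read from those counts. The median log2 fold change was 0.15 over the 6 members and -0.0095 over all tested genes. Across 19 alternative analyses Map3k21 was past the threshold in 19, which its choice made likely and which is no independent support. The share of all tested genes past it ran from 1.01% with the myelin covariate to 10.7% with a replicate block. Map3k13 was past it in 15, and not with the myelin covariate or on leaving out non-retrieval replicate 3 or 4 or retrieval replicate 4. Of all tested genes, 1.01%, 1.95%, 1.94% and 2.33% were past it in those settings. Map3k9 and Map3k11 were past it with a replicate block, with no filter and without retrieval replicate 1, beside 10.7%, 3.67% and 8.02% of all tested genes. Map3k9 was also past it in DESeq2 and without non-retrieval replicate 2, beside 6.11% and 3.64% of all tested genes. The alternatives reuse the same libraries, so for these members too the counts describe sensitivity to the analysis and are no independent support.

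**Figure D5:**
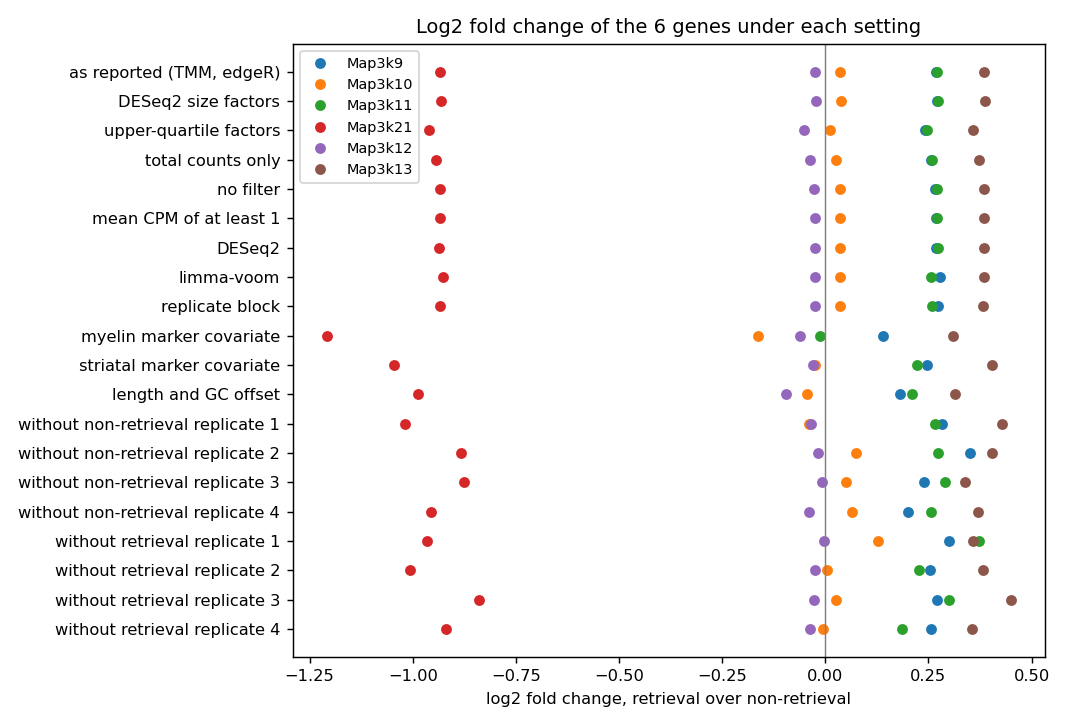
Log2 fold change (retrieval over non-retrieval) of the 6 genes in the reported analysis and in 19 alternatives. Map3k21 stays between -1.21 and -0.84 and Map3k13 between 0.31 and 0.45. With the myelin covariate Map3k9 drops to 0.14 and Map3k11 to -0.01, and Map3k10 lies on both sides of 0 across the alternatives.

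The spread within groups varied among the members and is given as a description. The choice of the family rested on a group difference of Map3k21. Whether a gene is called as different also depends on its spread, so the spread of Map3k21 may not be independent of that choice. The biological coefficient of variation, edgeR's estimate of the spread between libraries beyond counting error, was 6.23% for Map3k12, 8.30% for Map3k9, 8.37% for Map3k13, 9.48% for Map3k10, 9.75% for Map3k11 and 12.6% for Map3k21. Among the 500 genes nearest in level, 3.8% had a smaller spread than Map3k12, whereas 94.8% had a smaller spread than Map3k10 and 90.8% than Map3k11. Map3k21 was ordinary for its low level, since the median of its 500 neighbours was 12.2%. Without retrieval replicate 1, the spread of Map3k10 was 7.32% and that of Map3k11 7.35%.

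Genes whose level across the 8 libraries most resembled that of Map3k21 were ranked by Pearson's r of log2 CPM among 14534 genes with a mean of at least 1 CPM. Among the highest were the zinc-finger genes Zfp969 (r = 0.989, Spearman's rho = 1.00) and Zfp346 (r = 0.981, rho = 0.976), Angel1 (r = 0.977, rho = 0.976), and Shpk, which encodes sedoheptulokinase (r = 0.973, rho = 0.929). In these 4 genes the retrieval libraries lay below the non-retrieval libraries, so the group difference enters these values. With the group means removed, the 5 highest were Prmt5 (r = 0.986), C030018K13Rik (r = 0.966), Slc5a5 (r = 0.966), Hsdl1 (r = 0.958) and Taco1 (r = 0.953), none of which was named in the first ranking. With 8 libraries, 70 genes exceeded an r of 0.9 in the first ranking and 29 in the second, and these values describe likeness only.

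Further genes were taken from 7 lists of 46 genes, of which 45 could be tested. One of the lists holds 12 other MAP3K genes, and the rest hold genes acting with the mixed-lineage kinases. In edgeR, 6 of the 45 rose in retrieval, 0 fell and 39 did not pass, beside 3.67% of all tested genes higher and 0.902% lower. Of the 6 that rose, 3 were other MAP3K genes. Before adjustment 9 had a p under 0.05, beside 18.5% of all tested genes, a share near that background, and the median log2 fold change over the 45 was 0.015. The groups did not overlap for 10 of the 45, beside 11.1% of all tested genes. Retrieval was lower in Map2k1 and Mapk9 and higher in the rest of the 10, of which 4 were other MAP3K genes. The edgeR test called 0 of the 4 GTPases that bind the CRIB motif, and 0 of them had an unadjusted p under 0.05. Cdc42 averaged 242 ± 13.7 CPM without and 233 ± 17.5 CPM with retrieval, and Rac2, mainly a blood cell GTPase, averaged 1.45 ± 0.14 and 1.75 ± 0.55 CPM (SD, n = 4).

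Of 6 MAP2K genes, the kinases that MLKs phosphorylate, Map2k3 rose and 5 did not pass, beside 3.67% of all tested genes higher. Map2k3, an activator of p38, stood at 9.97, 8.65, 10.2 and 10.5 CPM in non-retrieval replicates 1 to 4 and at 14.2, 13.4, 15.1 and 15.0 CPM in retrieval replicates 1 to 4. The groups did not overlap. Map2k3 had an edgeR adjusted p of 0.00196 and a log2 fold change of 0.55 (SE 0.091), and the call held with any 1 library left out. In Map2k1 the groups did not overlap either, with retrieval lower. It averaged 335 ± 9.08 CPM without and 312 ± 9.76 CPM with retrieval (SD, n = 4) and did not pass (edgeR adjusted p = 0.350). Map2k4, an activator of JNK, had a log2 fold change of -0.11 (SE 0.060, edgeR adjusted p = 0.350), and Map2k7, the other JNK activator, of -0.011 (SE 0.064, edgeR adjusted p = 0.953).

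The edgeR test called 0 of the 7 JNK and p38 kinase genes, and before adjustment 1 of them had a p under 0.05, beside 18.5% of all tested genes. That gene was Mapk11, a p38 kinase, which averaged 58.2 ± 4.68 CPM without and 51.3 ± 5.57 CPM with retrieval (SD, n = 4). Its log2 fold change was -0.18 (SE 0.083), with an edgeR adjusted p of 0.246, or 0.0458 with a replicate block and 0.0482 with the length and GC offset. Mapk12, a further p38 kinase, had a log2 fold change of -0.32 (SE 0.17, edgeR adjusted p = 0.317). In Mapk9, a JNK gene, the groups did not overlap, with retrieval lower. Its log2 fold change was -0.10 (SE 0.056, edgeR adjusted p = 0.360). The neuronal JNK gene Mapk10 was the most abundant of the list per length, at 43.2 CPM per kb in non-retrieval and 40.8 CPM per kb in retrieval.

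Of 6 tested JNK scaffold genes, Sh3rf3 rose and 5 did not pass, beside 3.67% of all tested genes higher. Sh3rf2 had too few counts to test. Sh3rf3, of the POSH family, stood at 40.9, 49.0, 43.3 and 39.7 CPM in non-retrieval replicates 1 to 4 and at 54.6, 62.6, 61.0 and 56.0 CPM in retrieval replicates 1 to 4. The groups did not overlap (log2 fold change 0.44, SE 0.076, edgeR adjusted p = 0.00293), and the call held with any 1 library left out but not with the myelin covariate (log2 fold change 0.34, SE 0.11, adjusted p = 0.156). The founding member Sh3rf1 had a log2 fold change of 0.059 (SE 0.064, edgeR adjusted p = 0.667). The JIP genes Mapk8ip1, Mapk8ip2 and Mapk8ip3 had log2 fold changes of 0.031, -0.008 and 0.010.

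Of 4 regulators of DLK and LZK, edgeR called 0, and 0 had an unadjusted p under 0.05. The ubiquitin ligase gene Mycbp2 had a log2 fold change of 0.15 (SE 0.074, edgeR adjusted p = 0.282, and adjusted p = 0.0452 with a replicate block) and the deubiquitinase gene Usp9x of 0.16 (SE 0.077, edgeR adjusted p = 0.280). Of 6 JNK targets, Jun, an AP-1 subunit, rose and 5 did not pass, beside 3.67% of all tested genes higher. Jun averaged 52.2 ± 6.95 CPM without and 65.2 ± 3.61 CPM with retrieval (SD, n = 4), with a log2 fold change of 0.32 (SE 0.084) and an edgeR adjusted p of 0.0390. Its call was lost on leaving out any library except non-retrieval replicate 2 and retrieval replicate 1, with edgeR adjusted p from 0.0565 to 0.140. It was also lost with the myelin covariate (log2 fold change 0.31, SE 0.12, adjusted p = 0.263), the striatal covariate (adjusted p = 0.0936) and upper-quartile factors (adjusted p = 0.0688). Stmn2, a microtubule regulator of axons, had a log2 fold change of -0.14 (SE 0.064, edgeR adjusted p = 0.259, and adjusted p = 0.0477 with a replicate block).

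Of the 12 other MAP3K genes, 3 rose, none fell and 9 did not pass in edgeR, beside 3.67% of all tested genes higher. The log2 fold change was positive for 10 of the 12 (median 0.12) and for 47.8% of all tested genes (median -0.0095). Map3k19 stood at 3.45, 3.66, 2.85 and 3.84 CPM in non-retrieval replicates 1 to 4 and at 5.35, 5.89, 6.66 and 6.84 CPM in retrieval replicates 1 to 4. It rose by a log2 fold change of 0.84 (SE 0.14, edgeR adjusted p = 0.00174), with groups that did not overlap, in the direction opposite to Map3k21. The call held with any 1 library left out and was lost with the myelin covariate, where the log2 fold change was 0.81 and its SE rose to 0.21 (adjusted p = 0.0701). Map3k14, which encodes the NF-kB-inducing kinase, averaged 4.23 ± 0.71 CPM without and 6.25 ± 0.60 CPM with retrieval (SD, n = 4), a rise of 0.57 on the log2 scale (SE 0.14) at an edgeR adjusted p of 0.0292. Map3k8, which encodes the ERK pathway kinase TPL2, averaged 1.07 ± 0.13 and 1.84 ± 0.20 CPM (SD, n = 4), a rise of 0.77 on the log2 scale (SE 0.21) at an edgeR adjusted p of 0.0444. Map3k14 kept its call on leaving out non-retrieval replicate 2, retrieval replicate 1 or retrieval replicate 2 and lost it otherwise, with edgeR adjusted p from 0.0587 to 0.0857. Map3k8 kept its call only on leaving out retrieval replicate 1, with edgeR adjusted p from 0.0758 to 0.129 in the other 7 cases. With the myelin covariate neither passed, at a log2 fold change of 0.59 (SE 0.21, adjusted p = 0.221) for Map3k14 and 0.91 (SE 0.32, adjusted p = 0.227) for Map3k8. Map3k8 also did not pass with the striatal covariate (adjusted p = 0.127), upper-quartile factors (0.0577), total counts only (0.0508) or no filter (0.0550).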

How the data were processed

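The authors deposited 1 table of raw counts for 8 libraries, unscaled, with the length of each gene model. HISAT2 2.0.5, featureCounts 1.5.0-p3 and the build GRCm38 were named, per the submitters' processing notes. The sources used here do not give the annotation release or the strand setting. Count columns carry the sample titles. Of 54409 table genes in GENCODE M21, 98.33% had the same coordinates, and 5 of the 6 members had the same exon length (Map3k11 3801 bases in the table, 4393 in GENCODE).

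Genes were filtered with filterByExpr, scaled with TMM and tested with edgeR 4.0.16 (R 4.3.3) quasi-likelihood, two-sided, with Benjamini-Hochberg adjustment over 16745 genes. CPM used the same factors, and log2 CPM a prior count of 2. DESeq2 1.42.0, limma-voom (limma 3.58.1), other factors and filters, covariates, a replicate block and leaving out each library were alternatives. The length and GC offset (loess span 0.5) was added after the data were seen. The fit was tested on simulated data.

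Members, gene lists and tests were chosen with earlier results of these data known. Named genes are the 6 members, pathway genes that passed, the 2 with the smallest p in each list, and the 5 most like Map3k21 by each measure, of which 1 is not reported here. Map2k1, Map2k7, Mapk9, Mapk10, Mapk8ip1, Mapk8ip2 and Mapk8ip3 and the MAP3Ks named for their level were added after values were seen. Each pool counts as 1 sample, so p-values measure the spread between pools. Library pairs within a group differed by more than counting noise (chi-square per gene 6.23 to 24.6). Protein sequences were not used here.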

Additional observations from a re-analysis of the deposited data

Results flagged for a closer look

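Groups of 4 libraries of the 6 members and 15 named pathway genes were searched for 1 library far from the other 3, and 4 of 42 groups held one, where about 5% (2.1 groups) are found by chance. None was a mixed-lineage kinase. Jun stood at 70.6 CPM in retrieval replicate 3 against 63.0 to 63.7 CPM in the other 3 retrieval libraries. Map3k14 stood at 5.36 CPM in retrieval replicate 2 against 6.46 to 6.63 CPM. Map2k4 stood at 205 CPM in non-retrieval replicate 2 against 211 CPM in the other 3. Mapk12 stood at 6.66 CPM in non-retrieval replicate 3 against 4.54 to 4.87 CPM.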

How the results depend on the processing

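The number of genes called across the whole table varied with the analysis. The total of 766 became 1791 with a replicate block, 169 with the myelin covariate, 487 with the striatal covariate, 1381 with the length and GC offset, 1173 at an adjusted p under 0.1, 238 under 0.01, and 330 to 1360 with 1 library left out. Higher calls became 1274 with the block, 151 and 393 with the myelin and striatal covariates, 215 under 0.01, and 283 to 1032 with 1 library left out. Lower calls became 517 with the block, 18 and 94 with the covariates, 634 with the offset, 241 with no filter, 284 under 0.1, 23 under 0.01, and 45 to 328 with 1 library left out. The cause was not tested.

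Between same-numbered libraries, deviations from the group means correlated at 0.22, 0.085, 0.027 and 0.0996 for numbers 1 to 4. In this measure 8 of 8 libraries correlated best with their own number. The labels do not say whether same-numbered libraries belong together, and the reported test used no replicate block. The block left the log2 fold change of Map3k21 at -0.93. In the 4 non-retrieval libraries alone, the 5 differences between neighbouring members were 2.40, 0.42, 0.24, 1.17 and 1.85, in the same direction, with an exact permutation p of 0.125, the smallest possible. The order itself was set on all 8 libraries. With 1 library left out, the differences ranged from 2.41 to 2.47 (Map3k10 over Map3k12), 0.22 to 0.30 (Map3k12 over Map3k9), 0.22 to 0.28 (Map3k9 over Map3k11), 1.07 to 1.18 (Map3k11 over Map3k13) and 2.40 to 2.65 (Map3k13 over Map3k21). The spread within groups then ranged from 7.29% to 8.93% (Map3k9), 7.32% to 10.03% (Map3k10), 7.35% to 10.2% (Map3k11), 5.67% to 6.75% (Map3k12), 7.87% to 8.72% (Map3k13) and 11.9% to 13.6% (Map3k21). Among members, 106 of 114 log2 fold changes stayed within 1 SE. The 8 others included Map3k9, Map3k10, Map3k11 and Map3k21 with the myelin covariate. Of 315 values for the pathway genes, 279 kept their side of the threshold, 32 were lost and 4 were gained. Most of these genes were not called in the reported analysis and had no call to lose, so 279 is no measure of how firm the calls are. The losses, of 21 settings each, were 13 for Map3k8, 10 for Jun, 7 for Map3k14 and 1 each for Sh3rf3 and Map3k19. The settings include changes of the threshold itself.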
